A study of Mus musculus with 2 samples.

Results

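The 36 genes described here are imprinted genes of the mouse that lie outside the Dlk1-Dio3 locus of chromosome 12. They were listed by symbol and found in the count tables by their Ensembl identifier in GENCODE release M21. Of the 36, 35 had a row, out of 43629 genes in the tables. Peg13 (ENSMUSG00000106847), a noncoding RNA inside Trappc9, had no row and has no value here. The list covers 17 imprinted clusters on 9 chromosomes, with 16 genes on chromosome 7, and 10 clusters had more than 1 gene with a row.

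The series holds 1 group of 2 RNA-seq libraries, replicates A and B, from mouse embryonic stem (ES) cells labelled as a Dgcr8 knockout made with CRISPR/Cas9, of 129/Ola background at passage 7. ES cells are pluripotent cells derived from the blastocyst, and Dgcr8 is the RNA-binding partner of Drosha in the complex that releases microRNA hairpins from their primary transcripts. Both libraries carry the knockout, and no control library was analysed here, so the values are levels in knockout cells and not effects of the knockout. Whether the replicates came from different cultures or clones is not stated in the labels, which also leave the title codes KO2 and d5 unexplained, so the spread between the libraries may be technical.

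An imprinted gene is expressed mainly from the copy inherited from the mother or from the copy inherited from the father. The choice is set by DNA methylation of a control region, laid down in the egg or the sperm and kept through early development by the zinc-finger proteins ZFP57 and ZFP445, the corepressor TRIM28 and the methyltransferase DNMT1. Neighbouring imprinted genes often share 1 control region, and many of them act on growth, placenta, metabolism or brain function. In ES cells imprinting marks can be lost in culture. Counts per gene do not tell the parental copies apart, so the parental copy given below for each gene is textbook knowledge and was not measured.

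Stretches of DNA at the starts of 4 of these genes are shown, 3 for a sequence motif tied to imprint maintenance and 1 for a start region shared by 2 genes. Sequences are from RefSeq on GRCm38.p6, as 300 bases that run from 250 bases before a gene's start to 50 bases after it. In the windows of Mest, Nap1l5 and Mcts2 the capitals mark the hexamer TGCCGC or its reverse complement GCGGCA, the core of the motif bound by ZFP57 when methylated. In the Peg3 window the capitals mark the 163 bases between the RefSeq starts of Usp29 and Peg3, which are transcribed in opposite directions.
Mest chr6:30737800-30738099 (plus strand): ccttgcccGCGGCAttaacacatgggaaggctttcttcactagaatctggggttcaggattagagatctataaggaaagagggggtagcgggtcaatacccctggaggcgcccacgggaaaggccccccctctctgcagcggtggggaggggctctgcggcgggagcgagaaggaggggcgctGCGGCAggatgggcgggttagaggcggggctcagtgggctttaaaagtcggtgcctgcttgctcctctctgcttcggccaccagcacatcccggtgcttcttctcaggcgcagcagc
Nap1l5 chr6:58907077-58907376 (minus strand): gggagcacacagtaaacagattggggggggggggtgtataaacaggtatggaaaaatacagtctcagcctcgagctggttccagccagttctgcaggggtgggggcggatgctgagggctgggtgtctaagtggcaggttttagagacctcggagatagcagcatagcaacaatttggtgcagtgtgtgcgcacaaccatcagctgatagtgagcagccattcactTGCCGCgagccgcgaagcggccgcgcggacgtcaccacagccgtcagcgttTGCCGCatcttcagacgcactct
Mcts2 chr2:152686898-152687197 (plus strand): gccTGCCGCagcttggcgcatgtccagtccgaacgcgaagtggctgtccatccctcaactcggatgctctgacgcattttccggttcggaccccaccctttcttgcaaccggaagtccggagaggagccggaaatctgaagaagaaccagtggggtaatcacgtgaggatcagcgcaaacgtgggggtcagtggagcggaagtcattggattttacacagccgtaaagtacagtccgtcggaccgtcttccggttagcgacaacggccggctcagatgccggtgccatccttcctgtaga
Peg3 chr7:6730370-6730669 (minus strand): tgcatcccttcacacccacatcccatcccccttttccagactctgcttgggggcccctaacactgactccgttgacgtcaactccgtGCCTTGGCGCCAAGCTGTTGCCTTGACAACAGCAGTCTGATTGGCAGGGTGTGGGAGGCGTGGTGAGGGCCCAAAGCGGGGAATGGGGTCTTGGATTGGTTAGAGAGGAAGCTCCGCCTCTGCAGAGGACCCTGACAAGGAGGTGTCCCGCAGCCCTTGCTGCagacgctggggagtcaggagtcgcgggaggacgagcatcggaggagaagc

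The RefSeq table matched 27 of the 36 genes, with 40 start windows. The hexamer, searched on both strands, was in 12 of the 40 windows (30.0%), against 11.6% of all 32851 windows. Counted by gene it was found for 11 of 27 (40.7%), against 13.1% of 27025 genes. The windows of imprinted genes were also richer in the dinucleotide CpG, with a median of 17 against 7 in all windows. Among windows with at least 17 CpG the hexamer was in 10 of 22 for imprinted genes (45.5%), against 26.2% of 10320. A match is a description of letters and does not show binding, and the table had no entry for H19, Peg10, Sgce, Kcnq1, Cdkn1c, Impact, Nespas, Peg13 or Trappc9.

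Several of these transcripts hold microRNA hairpins, the substrates of the complex that needs Dgcr8. The mature microRNAs of 4 of them are given with the seed, bases 2 to 8, in capitals.
miR-335-5p chr6:30741314-30741336 (plus strand): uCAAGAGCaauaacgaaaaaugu
miR-335-3p chr6:30741354-30741375 (plus strand): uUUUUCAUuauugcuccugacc
miR-3099-5p chr7:6803600-6803620 (plus strand): cCAGCUUCcuuccagcccuug
miR-3099-3p chr7:6803638-6803659 (plus strand): uAGGCUAGagagagguugggga
miR-675-5p chr7:142577112-142577133 (minus strand): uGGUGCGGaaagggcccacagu
miR-675-3p chr7:142577078-142577099 (minus strand): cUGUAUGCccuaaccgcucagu
miR-483-5p chr7:142654968-142654989 (minus strand): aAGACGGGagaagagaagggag
miR-483-3p chr7:142654932-142654952 (minus strand): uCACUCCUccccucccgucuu
The first pair lies in Mest, the second in Usp29, the third in H19 and the last in Igf2. None of these seeds was shared by another of the 8. Hairpin genes with rows of their own were close to empty in these libraries of polyadenylated RNA, at 0 counts in A and 0 in B for Mir675, 0 and 0 for Mir483, and 0 and 4 for Mir335. These counts say nothing of mature microRNAs, which such libraries do not capture.

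Library A held 27872396 counts and library B 30327146. Abundance is given as CPM (counts per 1000000 counts of the library), and as RPKM (CPM per 1000 bases of the gene's merged exons) wherever genes are compared with each other. Intervals are exact 95% Poisson limits, and a floor of 3 counts equals 0.108 CPM in A and 0.0989 CPM in B. Intervals and floors cover counting error only. Dgcr8 itself held 1253 counts in A and 1942 in B, which does not check the genotype because counts per gene do not show which exons the reads came from. The libraries differed widely, with a coefficient of variation between them of 0.359 by edgeR's common dispersion over 14583 genes, and the ratio of A over B followed GC content. Its median log2 value was -0.53 in the tenth of genes with the lowest GC content and 0.57 in the tenth with the highest. All 8 pluripotency markers were above 1 CPM in both libraries, with sums of 8983 CPM in A and 5984 CPM in B. Dppa5a differed most, at 4252 CPM in A and 1767 CPM in B. In the replicate comparison below 5 of the 8 were called higher in A and 3 lower, against 38.4% of all genes tested in each direction. The summed level of the 12 endoderm markers was 83.8 CPM in A and 238 CPM in B. Most of it came from Lama1 (47.3 CPM in A and 142 CPM in B) and Col4a1 (21.1 CPM in A and 56.7 CPM in B), while Gata4 and Amn were higher in A. Of the 12, 6 reached 1 CPM in both libraries and 4 were under it in both, Afp lowest with 1 count in A and 0 in B. The 9 trophoblast markers summed to 141 CPM in A and 83.5 CPM in B. Most of this came from Tfap2c (76.9 CPM in A and 33.5 CPM in B) and Tead4 (23.7 CPM in A and 37.5 CPM in B). Of the 9, 6 reached 1 CPM in both libraries, Esx1 (21.7 CPM in A and 3.46 CPM in B) among them, and 2 were under it in both. The defining marker Elf5 was 1 of those 2, with 2 counts in A and 6 in B. The 11 fibroblast markers, which would show feeder cells, summed to 933 CPM in A and 879 CPM in B, mostly from Fn1 (882 CPM in A and 848 CPM in B), a gene not limited to fibroblasts. Of these markers 6 reached 1 CPM in both libraries, Thy1 (31.4 CPM in A and 21.9 CPM in B) and Pdgfrb (10.7 CPM in A and 3.59 CPM in B) among them. In the replicate comparison below, 4 of 6 tested were called higher in A and 1 lower, against 38.4% of all genes tested in each direction. Prrx1 and Postn were at 0 in both libraries and Col1a2 had 2 counts in A and 7 in B. The 6 neural markers summed to 124 CPM in A and 90.8 CPM in B, mostly from Tubb3 (74.7 CPM in A and 45.4 CPM in B) and Nes (34.9 CPM in A and 36.6 CPM in B). Of 5 neural markers tested 2 were called higher in A, 1 lower and 2 were not called. In bulk RNA, fewer cells of a type and less RNA per cell cannot be told apart.

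Most of the imprinted genes were detected in the knockout cells. All 35 genes with a row had at least 1 count in both libraries, and 27 (77.1%) reached 1 CPM in both, against 56.4% of the 23698 genes with a count in either library. Their median level was 17.6 CPM in A and 16.7 CPM in B, against 3.59 CPM in A and 2.77 CPM in B for all genes with a count. Per length the medians were 3.12 RPKM in A and 2.62 RPKM in B for the imprinted genes, against 1.34 RPKM in A and 1.17 RPKM in B for all genes with a count. Together the 35 genes held 37583 counts (0.135%) in A and 63516 (0.209%) in B. Peg10 alone gave 20.7% of these in A and 45.9% in B.

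**Figure D1:**
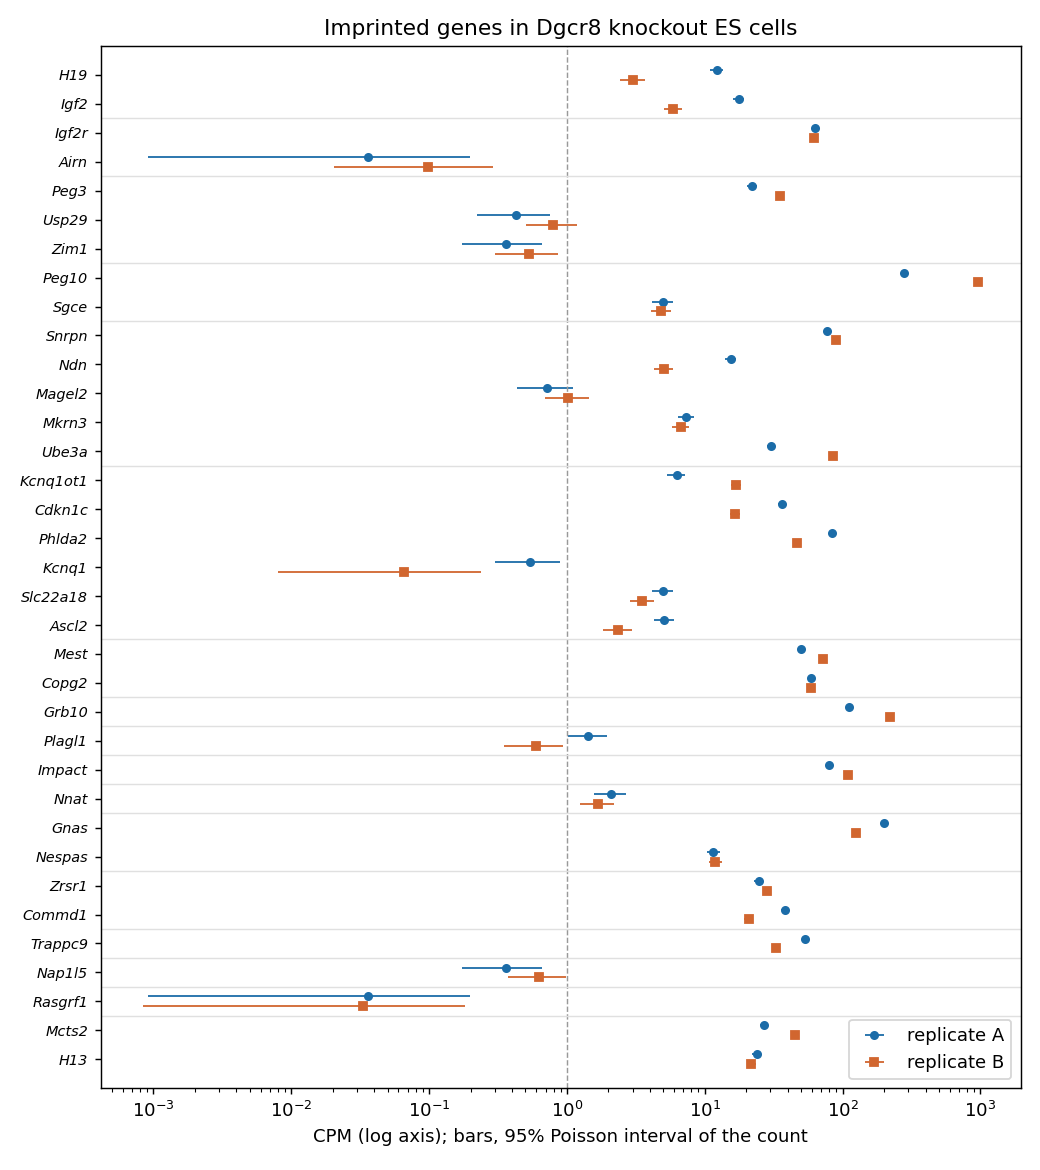
Level of each of the 35 imprinted genes with a row, in CPM on a log axis, by imprinted cluster. Replicate A and replicate B are separate points, with bars for the 95% Poisson limits and a dashed line at 1 CPM. Levels differ widely within single clusters. Igf2r lies at 62.8 CPM in A and 62.3 CPM in B, and Airn of the same cluster at 0.036 CPM in A and 0.099 CPM in B.

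The replicates were compared with an exact two-sided binomial test (edgeR, Benjamini-Hochberg adjustment over 14583 genes) on TMM-scaled libraries. It takes counting noise as the sole error, so it compares these libraries and has no replicate check. Of 29 imprinted genes tested 21 were called (72.4%), against 76.8% of all genes tested. Of these 11 were higher in A (background 38.4%) and 10 were lower in A (background 38.4%), so the split was near that of all genes. The 11 include Plagl1, which passed the filter through A alone. Calls of at least 2-fold were 8 (27.6%, against 13.9% of all genes), with 4 higher in A (background 7.37%) and 4 lower in A (background 6.57%). The median log2 ratio of A over B was -0.05 for the imprinted genes and 0.01 for all genes tested, while the median of its absolute value was 0.61 for the imprinted genes and 0.44 for all. When the spread between the libraries was included through edgeR's common dispersion, none of the 29 was called (smallest adjusted p = 0.539), 4 had an unadjusted p under 0.05, and 25 of all genes (0.171%) were called, with 846 at an unadjusted p under 0.05. That dispersion was estimated from A and B themselves, so the difference being tested was taken as noise. Few calls were therefore built in, and their absence does not show that the libraries were alike.

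Because the ratio followed GC content, each ratio is also given after a correction for GC content and transcript length. The correction left 20 imprinted genes called (69.0%, against 70.5% of all genes), 12 higher and 8 lower in A. For calls of any size after the correction, the share of all genes was not counted by direction. The 38.4% in each direction is from before the correction and is no background for corrected counts, here or below. Calls of at least 2-fold then numbered 6, against 9.09% of all genes. H19, Igf2, Ndn, Plagl1 and Commd1 were the 5 higher in A (background 5.12%), and Peg10 was the 1 lower in A (background 3.98%). Plagl1 passed the filter of 1 CPM through A alone, the library where it is higher, so its call is no support for these counts. Of the 21 calls, 16 kept both call and direction. Across the 29 genes GC content and the log2 ratio of A over B had a Pearson r of 0.54 and a Spearman rho of 0.46, as a description over genes that share both libraries. Over 14509 tested genes with a GC value the Pearson r was 0.48. The median GC content was 55.8% for the imprinted genes called higher in A and 46.5% for those called lower in A.

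**Figure D2:**
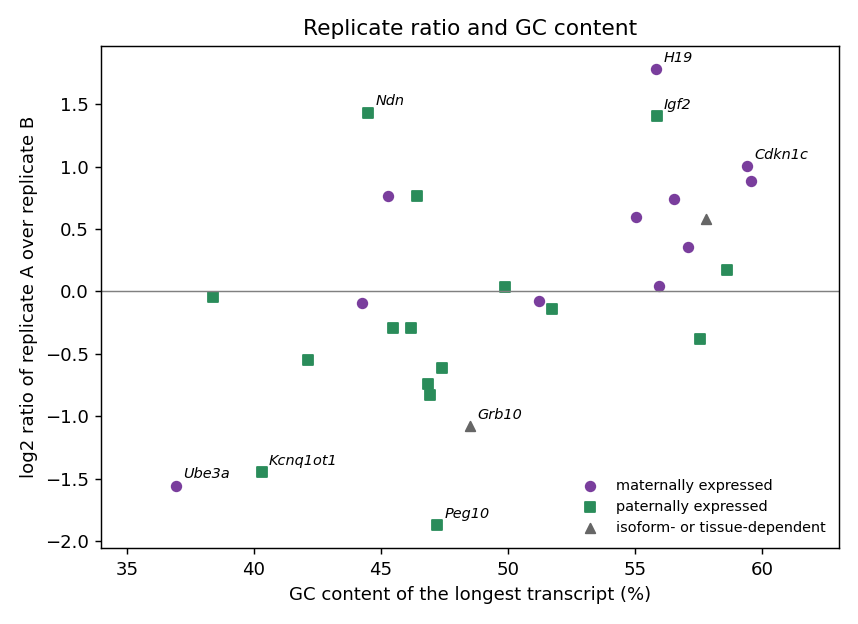
GC content of the longest transcript (x axis, percent) and log2 ratio of replicate A over replicate B before any GC correction (y axis) for the 29 imprinted genes tested, with symbols for the parental copy known to be expressed. Ratios were mostly below 0 at low GC content and mostly above 0 at high GC content, with Ndn high and Peg10 low for their GC content.

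Both genes of the H19-Igf2 cluster were higher in A. H19 (ENSMUSG00000000031, GRCm38 chromosome 7, 142575529 to 142578143, minus strand) is a maternally expressed noncoding RNA and the source of miR-675. It had 342 counts in A and 91 in B, or 12.3 CPM in A (11.0 to 13.6) and 3.0 CPM in B (2.42 to 3.68). The intervals do not overlap, and the log2 ratio of A over B was 1.78 (binomial test, adjusted p = 1.08e-35), or 1.45 after the GC correction. Igf2 (142650766 to 142666816, minus strand) encodes the paternally expressed growth factor IGF2 and is kept apart from shared enhancers on the maternal copy by the insulator protein CTCF. Igf2 had 491 counts in A and 180 in B, or 17.6 CPM in A (16.1 to 19.2) and 5.94 CPM in B (5.10 to 6.87). A was again the higher library, with a log2 ratio of 1.41 (adjusted p = 5.41e-35), and 1.29 after the correction. Per length H19 lay 1.62-fold above Igf2 in A and 1.18-fold above it in B, at 4.99 RPKM in A and 1.22 RPKM in B for H19 against 3.08 RPKM in A and 1.04 RPKM in B for Igf2. Of the exon bases of H19, 9.15% lie in small-RNA rows of the tables, Mir675 among them.

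The genes that handle IGF2 were mostly expressed. The Igf2 pathway list, which covers receptors, binding proteins and substrates, had 9 of 10 genes at 1 CPM in both libraries. Of 9 tested, 2 were called higher in A and 5 lower (background 38.4% each), and 3 and 5 after the GC correction. Igf2bp1, an RNA-binding protein of Igf2 transcripts, had 416 CPM in A and 651 CPM in B. Igfbp2, a secreted IGF-binding protein, had 524 CPM in A and 189 CPM in B, and Igf2bp2 had 92.9 CPM in A and 123 CPM in B. The substrate gene Irs1 was the one gene of that list under 1 CPM in both, with 6 counts in A and 9 in B. Among the imprinted genes themselves, Igf2r encodes the maternally expressed receptor that takes IGF2 to the lysosome. Igf2r (chromosome 17, 12682406 to 12769664, minus strand) had 62.8 CPM in A and 62.3 CPM in B, a mean of 62.6 ± 0.355 CPM (SD, n = 2). Its log2 ratio of -0.08 was not called (adjusted p = 0.112), and turned to 0.39 after the GC correction, which was called (adjusted p = 1.34e-15). Airn, the paternal antisense RNA that silences Igf2r in differentiated tissue, had 1 count in A and 3 in B, at or under the floor. Its merged exons cover 3597 bases of a gene that runs from 12741311 to 12860136. A low count in polyadenylated RNA therefore does not show that the RNA is absent. Grb10, an adaptor that dampens signals of the insulin and IGF receptors and is expressed from the maternal copy in most tissues and the paternal copy in neurons, had 3090 counts in A and 6674 in B. This amounted to 111 CPM in A and 220 CPM in B, a log2 ratio of -1.08 (adjusted p = 1.11e-277), and -0.76 after the correction.

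The Kcnq1 cluster held both highly expressed growth-limiting genes and nearly silent ones. Phlda2, a maternally expressed gene that limits placental growth, had 2334 counts in A and 1417 in B, or 74.7 RPKM in A and 41.7 RPKM in B. Cdkn1c, which encodes the maternally expressed cell-cycle inhibitor p57, had 1006 counts in A and 505 in B, or 17.7 RPKM in A and 8.17 RPKM in B. Both were higher in A, with log2 ratios of 0.74 for Phlda2 (adjusted p = 2.9e-54) and 1.00 for Cdkn1c (adjusted p = 4.81e-40), which the correction lowered to 0.22 and 0.47. Kcnq1ot1, the long paternal noncoding RNA that silences the cluster, went the other way, with 174 counts in A and 510 in B, or 6.24 CPM in A and 16.8 CPM in B. Its log2 ratio of -1.45 (adjusted p = 5.42e-37) was -0.13 after the correction and was then not called (adjusted p = 0.15). The placental transcription factor gene Ascl2 had 5.06 CPM in A and 2.34 CPM in B, with a log2 ratio of 0.89 that was 0.32 and not called after the correction (adjusted p = 0.0507). Of 7 trophoblast markers tested, Tfap2c, Esx1 and Krt7 were called higher in A, Tead4 lower and 3 were not called (background 38.4% in each direction). After the correction 3 were higher and 2 lower. The part of these markers in the Ascl2 difference was not tested. The transporter gene Slc22a18 had 138 counts in A and 107 in B, a log2 ratio of 0.35 near the threshold (adjusted p = 0.0457), and -0.11 after the correction. The potassium channel gene Kcnq1 had 15 counts in A and 2 in B, under 1 CPM in both.

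Peg10 was the most abundant imprinted gene by CPM in both libraries, and its level differed widely between them. By RPKM it was highest in B only, at 41.9 in A and 144 in B against 74.7 in A and 41.7 in B for Phlda2. Peg10 (ENSMUSG00000092035, chromosome 6, 4747306 to 4760517, plus strand) is a paternally expressed gene derived from a retrotransposon and needed for the placenta. It had 7783 counts in A and 29137 in B, or 279 CPM in A (273 to 286) and 961 CPM in B (950 to 972). B was the higher library, with a log2 ratio of A over B of -1.87, and -1.35 after the correction. Its mean of 620 ± 482 CPM (SD, n = 2) therefore has a wide error. Of 8 endoderm markers tested 6 were also called lower in A and 2 higher (background 38.4% each), and 6 and 0 after the correction. Their part in the Peg10 difference was not tested. Sgce, which encodes epsilon-sarcoglycan and starts 98 bases from Peg10 on the other strand in GENCODE, is also paternally expressed. It had 138 counts in A and 146 in B, or 4.95 CPM in A and 4.81 CPM in B, and was not called (log2 ratio -0.05, adjusted p = 0.794). After the correction its ratio was 0.53 and was called (adjusted p = 0.00396). Per length Peg10 lay 89.8-fold above Sgce in A and 318-fold above it in B. These folds depend on the length measure. Merged exons of Sgce cover 10612 bases and its longest transcript 4416, while Peg10 has 6667 by both, so the folds are smaller by longest transcript.

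The Peg3 cluster shows the same kind of imbalance across a shared start. Peg3, a paternally expressed zinc-finger gene, had 617 counts in A and 1060 in B, or 22.1 CPM in A and 35.0 CPM in B. The log2 ratio was -0.74 (adjusted p = 5.7e-25) and -0.08 after the GC correction, where it was not called (adjusted p = 0.276). Usp29, which starts 163 bases away on the other strand in RefSeq, as shown by the capitals in the Peg3 window, had 12 counts in A and 24 in B. Per length Peg3 was 69.8-fold above Usp29 in A and 59.9-fold above it in B. These folds are smaller by longest transcript, which has 7540 bases for Usp29 against 18078 of merged exons, and 8694 against 13324 for Peg3. The maternally expressed zinc-finger gene Zim1 beside them had 10 counts in A and 16 in B, and Peg3 lay 37.4-fold above it in A and 40.2-fold above it in B by RPKM. Usp29 and Zim1 were both under 1 CPM in each library.

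In the cluster of the Prader-Willi and Angelman syndromes, Snrpn had the highest RPKM and the intronless genes lay well below it. Snrpn, which encodes the spliceosome protein SmN, had 2162 counts in A and 2703 in B, or 35.9 RPKM in A and 41.3 RPKM in B. Its log2 ratio was -0.29 (adjusted p = 4.54e-12), and -0.23 after the correction. Snrpn shares 27.3% of its exon bases with other rows on the same strand, so its count is uncertain. These rows are Gm38393, with 589 shared bases and 24 counts in A and 521 in B, and Snurf, with 216 shared bases and 0 counts in both libraries. Ndn, which encodes the MAGE-family protein necdin, had 429 counts in A and 153 in B, or 15.4 CPM in A (14.0 to 16.9) and 5.04 CPM in B (4.28 to 5.91). It was higher in A by a log2 ratio of 1.43 (adjusted p = 6.84e-32), which the correction raised to 1.73, opposite to Snrpn of the same cluster. The ubiquitin-ligase gene Mkrn3 had 204 counts in A and 203 in B, and the MAGE gene Magel2 had 20 in A and 31 in B and passed the filter through B alone. Neither was called. Ube3a, a ubiquitin ligase expressed from the maternal copy in neurons and from both copies elsewhere, had 846 counts in A and 2565 in B, or 30.4 CPM in A and 84.6 CPM in B. The log2 ratio was -1.56 (adjusted p = 3.3e-190) and -0.60 after the correction. Ube3a shares 8.74% of its exon bases with other rows. Its antisense transcript Snhg14, which shares 1803 exon bases with Ube3a, also had the higher count in B, at 835 in A and 1573 in B. The strand setting of the counting is not given, so reads of the antisense partners cannot be told apart.

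Imprinted retrogenes, which lie within introns of other genes, ranged from high to nearly silent. Mcts2, a paternally expressed retrogene of the translation factor gene Mcts1, had 749 counts in A and 1366 in B, or 29.5 RPKM in A and 49.4 RPKM in B. The log2 ratio was -0.83 (adjusted p = 3.92e-38) and -0.93 after the correction. Its host H13, a signal peptide peptidase gene, had 667 counts in A and 661 in B and was not called (adjusted p = 0.64). Mcts2 lay 10.9-fold above H13 in A and 20.1-fold above it in B by RPKM. These folds are smaller by longest transcript, which has 5204 bases for H13 against 8884 of merged exons. Of the 50-base stretches of Mcts2 0.695% also occur in a gene elsewhere, and the parent Mcts1 had 712 counts in A and 886 in B. Zrsr1, a paternally expressed splicing-factor retrogene, had 5.50 RPKM in A and 6.33 RPKM in B, with a log2 ratio of -0.29 (adjusted p = 0.000104) that was 0.06 and not called after the correction. Its host Commd1, a regulator of copper transport, had 6.44 RPKM in A and 3.52 RPKM in B, a log2 ratio of 0.77 (adjusted p = 2.8e-27), and 1.15 after the correction. Zrsr1 and Commd1 share 412 exon bases on opposite strands. Nap1l5, a nucleosome assembly retrogene inside Herc3, had 10 counts in A and 19 in B, while Herc3 had 251 in A and 268 in B. The window of Nap1l5 holds the hexamer in 2 places, as does that of Mest, so the motif stood at the starts of both a nearly silent gene and a well expressed one. Nnat, a membrane protein gene inside Blcap, had 58 counts in A and 51 in B and was not called (adjusted p = 0.488), with Blcap at 810 in A and 982 in B.

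Among the remaining protein-coding clusters most genes were well expressed. Mest, a paternally expressed hydrolase gene that hosts miR-335, had 1398 counts in A and 2191 in B, or 12.7 RPKM in A and 18.3 RPKM in B. The log2 ratio was -0.61 (adjusted p = 4.11e-36), and -0.54 after the correction. The coat protein gene Copg2, which overlaps Mest tail to tail over 912 exon bases, had 11.4 RPKM in A and 11.5 RPKM in B. Copg2 was not called (log2 ratio -0.09, adjusted p = 0.0701), but was called higher in A after the correction (log2 ratio 0.24, adjusted p = 2.09e-06) and lower in A under DESeq2 size factors (log2 ratio -0.12, adjusted p = 0.0173). Reads in the overlap, 23.1% of the exon bases of Mest and 17.8% of those of Copg2, are uncertain between them. Gnas, which encodes the G-protein subunit Gs alpha and has maternal, paternal and biallelic transcripts, had 5546 counts in A and 3778 in B, or 199 CPM in A and 125 CPM in B. Its log2 ratio was 0.58 (adjusted p = 4.67e-82) and 0.31 after the correction. The antisense RNA Nespas had 322 counts in A and 363 in B and was not called (log2 ratio -0.14, adjusted p = 0.227), but was called after the correction (log2 ratio -0.29, adjusted p = 0.0117). Of its exon bases 38.5% lie in rows on the opposite strand. Trappc9, a vesicle tethering gene, had 6.72 RPKM in A and 4.16 RPKM in B, with a log2 ratio of 0.59 (adjusted p = 4.42e-24) and 0.51 after the correction. Impact, an inhibitor of the stress kinase GCN2, had 15.5 RPKM in A and 21.2 RPKM in B, with a log2 ratio of -0.55 (adjusted p = 1.48e-43) and -0.17 after the correction. The zinc-finger gene Plagl1 had 40 counts in A and 18 in B, and passed the filter through A alone, which favours a call in that direction. Its log2 ratio, given as a description, was 0.76, and 1.19 after the correction. Rasgrf1, an exchange factor for Ras with roles in brain and growth, had 1 count in A and 1 in B, at or under the floor.

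**Figure D3:**
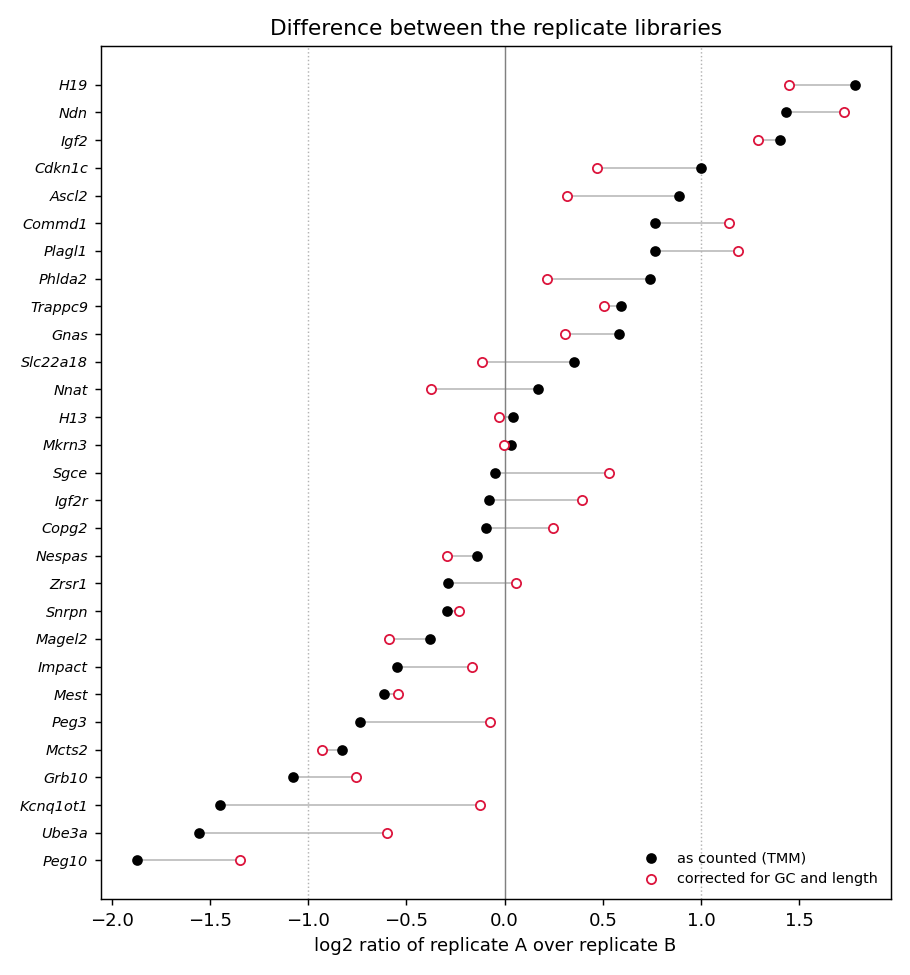
Log2 ratio of replicate A over replicate B for the 29 imprinted genes tested, before and after the correction for GC content and transcript length, computed from TMM-scaled CPM with a pseudocount of 0.5, with dotted lines at a 2-fold difference. H19 (1.78), Ndn (1.43) and Igf2 (1.41) stand highest and Peg10 (-1.87) lowest before the correction, while Kcnq1ot1 lies at -1.45 before it and -0.13 after it.

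Grouped by the parental copy that is known to be expressed, maternally expressed genes had the higher median level per length in each library. Their median was 4.99 RPKM in A and 3.52 RPKM in B over 13 genes, against 2.27 RPKM in A and 1.20 RPKM in B over 20 paternally expressed genes. At 1 CPM in both libraries were 11 of the 13 and 14 of the 20. The difference of medians, maternal minus paternal, was 1.02 in A and 1.25 in B on the scale of log2(RPKM + 0.5), a mean of 1.13 ± 0.158 (SD, n = 2). The ranges overlap, since Kcnq1 and Zim1 were under 1 CPM and Peg10 and Mcts2 were among the highest genes. Without 5 genes taken as having imprinting limited to some tissues, Ube3a, Ascl2, Copg2, Commd1 and Trappc9, the difference was 0.69. Igf2r was kept, although the count of Airn, which silences it in differentiated tissue, was at or under the floor, with the limit given above. Genes are not replicates, so this is a description of these lists.

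**Figure D4:**
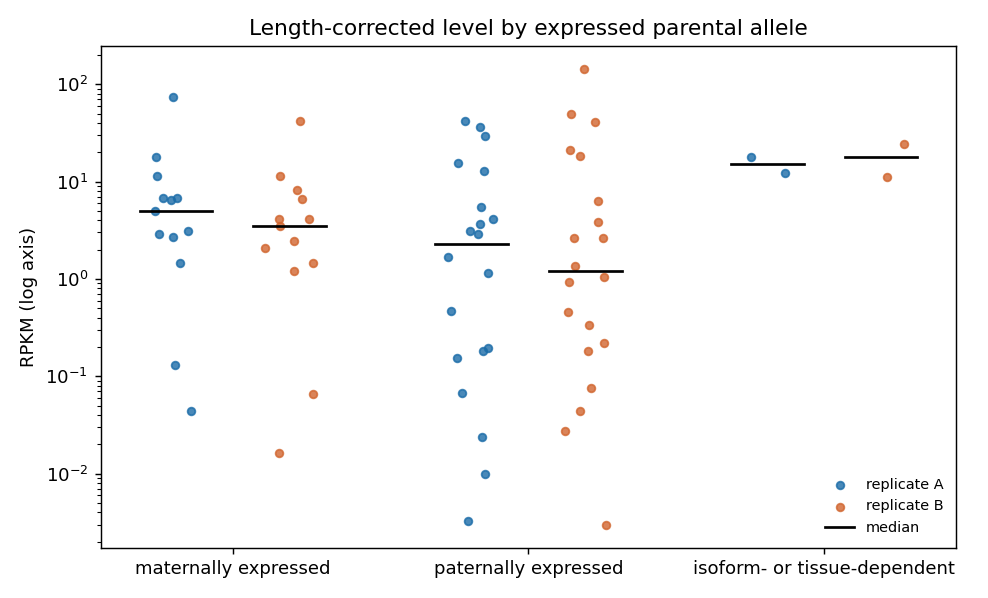
Level in RPKM on a log axis for maternally expressed genes, paternally expressed genes and the genes with isoform- or tissue-dependent imprinting (Grb10 and Gnas), with replicate A left of replicate B and bars at the medians. The medians of 4.99 RPKM in A and 3.52 RPKM in B for maternally expressed genes lie above the 2.27 RPKM in A and 1.20 RPKM in B of paternally expressed genes, and the ranges overlap.

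The replicate ratio was also counted by parental copy. Of 11 maternally expressed genes tested, 7 were called higher in A, 1 lower and 3 were not called, with a median log2 ratio of 0.59. Over all genes tested 38.4% were called higher in A and 38.4% lower. Of 16 paternally expressed genes tested, 3 were called higher in A, 8 lower and 5 were not called, with a median of -0.29. The 3 include Plagl1, which passed the filter through A alone, so its call is no support. Magel2, which passed through B alone, is among the 5. The difference between the lists was not tested. The lists also differed in GC content, with a median of 55.8% for the maternally expressed genes tested and 46.9% for the paternally expressed ones. After the GC correction 7 maternally expressed genes were higher in A and 1 lower, with a median of 0.32. Of the paternally expressed genes 4, Plagl1 among them, were then higher in A and 6 lower, with a median of -0.15. Over all genes 70.5% were called after the correction, counted for both directions together only.

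The listed regulators of imprinting, which include factors that read and keep imprints and other genes of DNA methylation, were all expressed. All 14 imprinting regulators reached 1 CPM in both libraries, against 56.4% of genes with a count in either library. Before the GC correction 1 was called higher in A, 12 lower and 1 was not called. The 12 include Dnmt3a, Dnmt3b, Dnmt3l, Tet1 and Tet2, so they are not all factors that keep imprints. Over all genes tested 38.4% were called higher in A and 38.4% lower before the correction, a share that also applies to the uncorrected counts of the lists below. After the correction 1 regulator was called higher in A and 12 lower. Trim28, the corepressor brought in by ZFP57, had 2597 CPM in A and 2444 CPM in B and was the gene not called, though its log2 ratio moved to -0.41 after the correction, from -0.01 before it. Dnmt3l, which assists the enzymes that lay down new methylation, had 363 CPM in A and 557 CPM in B. Zfp57 had 435 CPM in A and 468 CPM in B. Zfp445, another zinc-finger gene of imprint maintenance, had 6.49 CPM in A and 44.5 CPM in B, and Dppa3, which protects methylation in the early embryo, had 13.5 CPM in A and 4.15 CPM in B. Zfp445 and Dppa3 were named after their values were seen. In the imprinted locus Dlk1-Dio3, 5 of 7 genes reached 1 CPM in both libraries. Of 6 tested, 2 were called higher in A and 3 lower, and after the GC correction 3 were higher and 2 lower. Its maternal noncoding RNAs Rian, Meg3 and Mirg had 260, 259 and 119 CPM in A and 388, 264 and 135 CPM in B. The retrotransposon-derived gene Rtl1 of that locus had 1 count in A and 0 in B. Among 9 hosts and paralogs of the imprinted genes, 8 reached 1 CPM in both libraries. Of 8 tested, 1 was called higher in A and 6 lower, but after the GC correction 4 were higher and 3 lower. The nucleosome assembly genes Nap1l1 and Nap1l4, paralogs of Nap1l5, had 402 and 184 CPM in A and 417 and 181 CPM in B. Maged1, a MAGE gene related to Ndn and Magel2, had 196 CPM in A and 115 CPM in B, and Rasgrf2, the paralog of Rasgrf1, had 7 counts in A and 12 in B.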

How the data were processed

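The authors deposited raw counts per gene, keyed by Ensembl identifier, in a file for each library. The mm10 build, STAR (2.4.2a) and featureCounts (1.4.5-p1) are listed in the submitters' processing notes. How the counting treated strand and multi-mapping reads, and which annotation release it used, was not given in the sources used here. Per the labels' protocols, the libraries were made from polyadenylated RNA with an Illumina TruSeq kit.

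Positions, exon lengths, GC content of the longest transcript and overlaps came from GENCODE M21, which matched 42548 of 43629 genes with 99.8% of counts. Library totals were the denominators of CPM. For the replicate comparison, the 14583 genes that reached 1 CPM in A or in B were scaled by TMM (factors 1.03 for A and 0.968 for B) and tested with edgeR 4.0.16 (R 4.3.3) by its exact binomial test, with genes called at an adjusted p under 0.05. Folds and log2 ratios are of A over B, from TMM-scaled CPM with a pseudocount of 0.5, which understates the ratios of low genes. With 1 library on each side no residual degrees of freedom were left for the quasi-likelihood test. The GC and length correction was a loess of the log2 ratio (span 0.5) fitted to genes at 10 CPM or more. The test was tested on simulated data. Alternatives were other scalings with DESeq2 1.42.0 among them, filters, pseudocounts, length measures, Fisher's exact test, edgeR's test with a common dispersion, and each library alone.

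All imprinted genes on the list are named. Of the other lists, the 3 highest genes and those under 1 CPM in both libraries are named, with exceptions stated. Of 16 imprinted genes that share exon bases with another row of the tables, 10 share over 5% of theirs. In 8 some 50-base stretches occur in a gene elsewhere, up to 4.84% of them. The genes and lists were chosen with earlier results of these data known.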

Additional observations from a re-analysis of the deposited data

How the results depend on the processing

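No paired analysis was possible because the series has 1 group, so its replicates share no number with another group. With edgeR's common dispersion the called genes, those higher in A, those lower in A and those called at least 2-fold were 0 each, against 21, 11, 10 and 8. That dispersion came from A and B themselves, so few calls were built in. The GC and length correction turned the sign of the log2 ratio of A over B for Igf2r to 0.39, Sgce to 0.53, Slc22a18 to -0.11, Copg2 to 0.24 and Zrsr1 to 0.057. It also turned Nnat to -0.37, H13 to -0.03 and Mkrn3 to -0.003, which were called neither before nor after it, and made Nespas a call (adjusted p = 0.0117). The cause of these changes was not tested. The median log2(CPM + 0.5) of the imprinted genes, 4.14, was 1.75 with RPKM, a change of unit. The maternal minus paternal difference, 1.13, was 1.66 by CPM and 0.69 without the genes taken as tissue-limited, with Igf2r kept. It was 1.32 with a pseudocount of 0.1 and 0.97 with 1. Igf2r (adjusted p = 0.0299) and Copg2 (adjusted p = 0.0173) were called lower in A under DESeq2 size factors. Slc22a18 was no longer called under DESeq2 size factors (adjusted p = 0.0705) or without the filter (adjusted p = 0.0689). Scaling by library totals moved the median log2 ratio of all genes from 0.01 to 0.10 and left the 11 and 10 calls. With a threshold of 5 CPM 22 imprinted genes were detected in both libraries, and with 0.5 CPM 29, against 27. Counts at or under 3, as for Airn and Rasgrf1, allow no ratio.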
